A study of Mus musculus with 11 samples.

Results

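The 10 genes described here encode the 2 opsins of mouse cone photoreceptors and the cone forms of the proteins that turn light absorption into an electrical signal. They are Opn1sw, Opn1mw, Gnat2, Gnb3, Gngt2, Pde6c, Pde6h, Cnga3, Cngb3 and Arr3. They were taken by symbol from a list of cone genes by role, with no threshold on a measured value, and are 10 of 38393 genes in the count tables. RNA was sequenced from whole eyes after removal of the lens and cornea, so that retina, pigment epithelium, choroid, sclera and ciliary body were left. There were 5 libraries from wild-type mice (WT) and 6 from mice lacking both copies of the precursor of the microRNA miR-211 (miR-211-/-, called KO below). All animals were on the C57BL/6 background by the labels (C57Bl/6J in the study's methods) and 1 to 2 months old, and controls were age-matched littermates. The KO line carries its deletion from the germ line, in every cell, and it is a single targeted line. By the study's methods all KO animals were males while the WT animals were of both sexes, so sex and genotype are partly confounded, and the labels do not give the sex of a library. The comparison asks whether cone transcripts differed between the genotypes in these young eyes.

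Cones serve daylight and colour vision. A photon activates an opsin, the opsin activates the G protein transducin, transducin releases the inhibition of a phosphodiesterase, and the resulting loss of cGMP closes a cation channel, until arrestin quenches the opsin. Most mouse cones make both opsins, with the short-wavelength form prevailing in the ventral retina and the middle-wavelength form in the dorsal retina under the control of thyroid hormone. Rods use their own paralogues for nearly every step and far outnumber cones.

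The deleted microRNA lies within Trpm1, at chr7:64205831-64205852 on the plus strand for its mature 5p arm (RefSeq, GRCm38.p6). Its sequence is shown because the seed, bases 2 to 8 in capitals, is what pairs with target transcripts, and it is shown with the 2 other mouse microRNAs in the RefSeq table that carry the same seed. These map to chr19:22750610-22750631 (miR-204-5p) and chr6:38507371-38507393 (miR-7670-3p), both on the plus strand. miR-204-5p differs from miR-211-5p only by U17A, counted from 1 at the 5′ end.
mmu-miR-211-5p: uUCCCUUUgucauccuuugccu
mmu-miR-204-5p: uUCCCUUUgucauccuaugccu
mmu-miR-7670-3p: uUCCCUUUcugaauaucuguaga

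A match to this seed, AAAGGGA on the transcript strand, was searched in the longest annotated 3′ UTR of each gene. Among the 10 cone genes, 1 had a match, against 2414 of 14511 tested genes with a 3′ UTR (16.6%). The median 3′ UTR length was 533 bases for the cone genes and 1210 bases for the tested genes, so the cone genes offered less sequence to the search. The match was in Pde6h, at base 3750 of a 3′ UTR of 5596 bases (chr6:136967019-136967025, plus strand, GRCm38), and it was not followed by the A that strengthens a site. It is shown with 11 bases on each side and with the match in capitals.
Pde6h: gaggtttgaagAAAGGGActgggctgggg
The match is a description of the letters and no evidence of binding.

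The libraries held 20282279 to 36317730 read pairs assigned to genes. Values are given as CPM, read counts divided by the library size after its scaling by the TMM method, and as FPKM where levels of different genes are compared, since FPKM also divides by gene length. A gene was tested when it had at least 1 CPM in at least 5 libraries, and it was called at a Benjamini-Hochberg adjusted p under 0.1 in edgeR's likelihood-ratio test. The deleted gene, Mir211, had 0 counts in all 11 libraries, so it cannot check the genotype labels. Its host gene Trpm1 had 331 to 496 CPM in WT and 413 to 465 CPM in KO libraries. Xist, the transcript of the inactive X chromosome in females, was at 1248, 796 and 1636 CPM in WT replicates 1, 3 and 5 and at 1.29 CPM or less in the other 8 libraries. Lens transcripts were high in WT replicate 4, at 86032 CPM summed over 9 marker genes, and in KO replicates 3 and 6, at 24118 and 3231 CPM, against 5.58 to 70.6 CPM elsewhere. Muscle markers were highest in WT replicates 1 and 2 and KO replicate 1, at 8659, 8654 and 9358 CPM, against 900 to 5499 CPM elsewhere. No label says that replicates came from separate litters or days, so p-values measure the spread between these libraries.

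None of the 10 cone genes differed between KO and WT eyes by the test. All 10 passed the filter, 0 of 10 were called, and 0 of 10 reached an unadjusted p under 0.05, against 330 of all 15767 genes tested. The smallest unadjusted p was 0.518, for Arr3, and every adjusted p was 1.00. Over all 15767 genes tested, 1 gene was called, which is 0.00634%. It was Xist, the transcript found in females and high in 3 of the 5 WT libraries and in no KO library. Of the cone genes 5 had a log2 fold change above 0 and 5 below, with a median of 0.00 against 0.00 over all genes tested. The WT and KO ranges overlapped for all 10 genes, while 29 of the 15767 genes (0.184%) had ranges that did not overlap. For the 9 genes other than Gnb3 the 95% intervals of the fold changes allowed changes of at most -21.4% to 27.9% relative to WT, and for Gnb3 of -40.2% to 32.8%. Read pairs per gene and library ranged from 162 for Cnga3 to 18422 for Gnb3. In a whole-eye sample, fewer cones and less RNA per cone cannot be told apart.

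**Figure D1:**
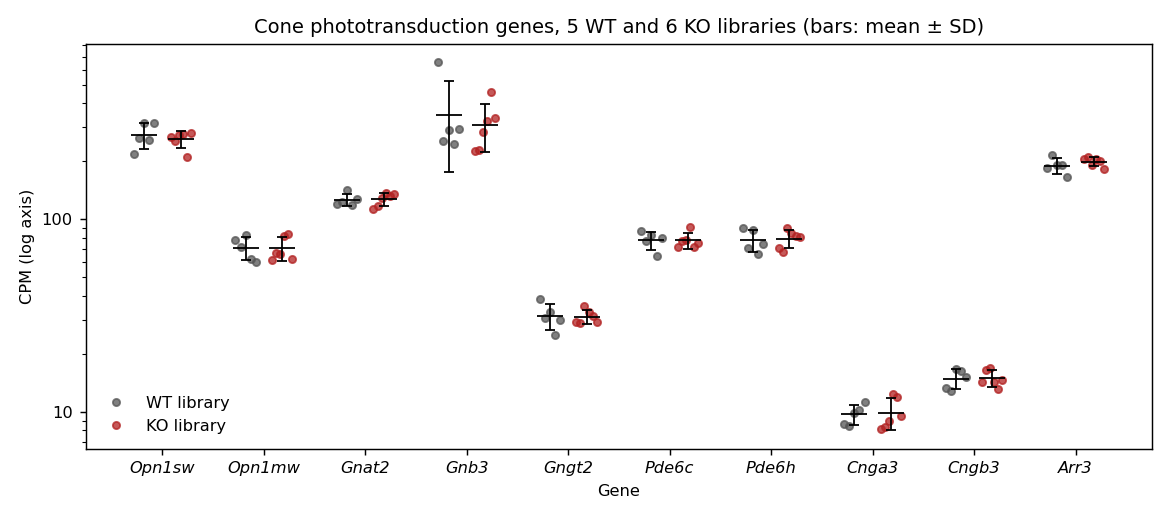
CPM of each of the 10 cone genes on a log axis, with 1 grey point for each of 5 WT libraries, 1 red point for each of 6 KO libraries, and bars for the mean ± SD. The clouds overlap for every gene, and WT replicate 1 stands above the other WT libraries for Gnb3 at 654 CPM.

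Opn1sw, the short-wavelength opsin (chr6:29376671-29388468, minus strand), had 219, 263, 317, 258 and 316 CPM in WT replicates 1 to 5. In the KO libraries it ran from 212 through a median of 271 to 282 CPM. WT replicate 1 and KO replicate 5 were the lowest of their groups, and the other 5 KO libraries lay inside the WT range. Means were 274 ± 41.8 CPM (SD, n = 5) in WT and 262 ± 26.3 CPM (SD, n = 6) in KO. The log2 fold change was -0.07 (SE 0.14, interval -0.35 to 0.21).

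Opn1mw, the middle-wavelength opsin (chrX:74127464-74150760, plus strand), had 78.5, 72.1, 82.4, 62.1 and 59.9 CPM in WT replicates 1 to 5. The KO libraries ran from 61.6 through a median of 66.6 to 84.2 CPM, with KO replicates 4 and 5 near the WT maximum and the other 4 between 61.6 and 67.0 CPM. Means were 71.0 ± 9.89 CPM (SD, n = 5) and 70.6 ± 10.04 CPM (SD, n = 6), and the log2 fold change was -0.01 (SE 0.13, interval -0.27 to 0.25). Opn1mw is on the X chromosome. The 3 WT libraries with Xist had 78.5, 82.4 and 59.9 CPM and the 2 without it 72.1 and 62.1 CPM. The study's methods list 3 female and 2 male WT animals, the same numbers as the WT libraries with and without Xist. The labels do not assign a sex to a library, and sex entered no fit. The study also compared WT males with KO males, which was not done here.

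The ratio of the 2 opsins was compared within each library, where it does not depend on library size. Per length (FPKM), Opn1sw was above Opn1mw in all 11 libraries, by a ratio of 1.80, 2.39, 2.37, 2.67 and 3.23 in WT replicates 1 to 5. In the KO libraries the ratio was 2.71, 2.36, 2.61, 2.14, 1.64 and 2.79. The means were 2.49 ± 0.52 (SD, n = 5) and 2.38 ± 0.43 (SD, n = 6), and the groups overlapped over most of their range. On the log2 CPM scale the ratio was 1.95 ± 0.33 in WT and 1.89 ± 0.31 in KO, a difference of -0.05 (two-sided exact permutation test over 462 splits, p = 0.801). Without WT replicate 5 or without KO replicate 5 the difference was 0.06, on the other side of 0.

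The difference was not alike in the 2 series into which the libraries fall. The columns of the study's supplementary gene table are named by a mouse number for WT replicates 1 and 2 and KO replicates 1 to 3, and by an age for WT replicates 3 to 5 and KO replicates 4 to 6. The names were tied to the libraries by the proportionality of their values, and they do not say what separated the series. In the mouse-number series the KO mean of the log2 ratio was 0.36 higher than the WT mean, with all 3 KO libraries above both WT libraries on this scale (exact permutation p = 0.1, the smallest that 10 splits allow). In the age series it was lower, with a difference of -0.37 (exact permutation p = 0.3 over 20 splits, of which the smallest possible is 0.1). The difference between these differences was 0.73 (exact permutation p = 0.045 over 200 splits within series). That test was chosen after the values had been seen, and it is unadjusted. The lowest log2 ratios of each genotype widen this contrast. They were 1.48 in WT replicate 1, beside 1.87 in WT replicate 2, and 1.33 in KO replicate 5, beside 1.76 and 2.18 in KO replicates 4 and 6. The contrast without these libraries was not computed. With the series as a covariate the genotype difference was -0.01 (exact permutation p = 0.98).

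**Figure D2:**
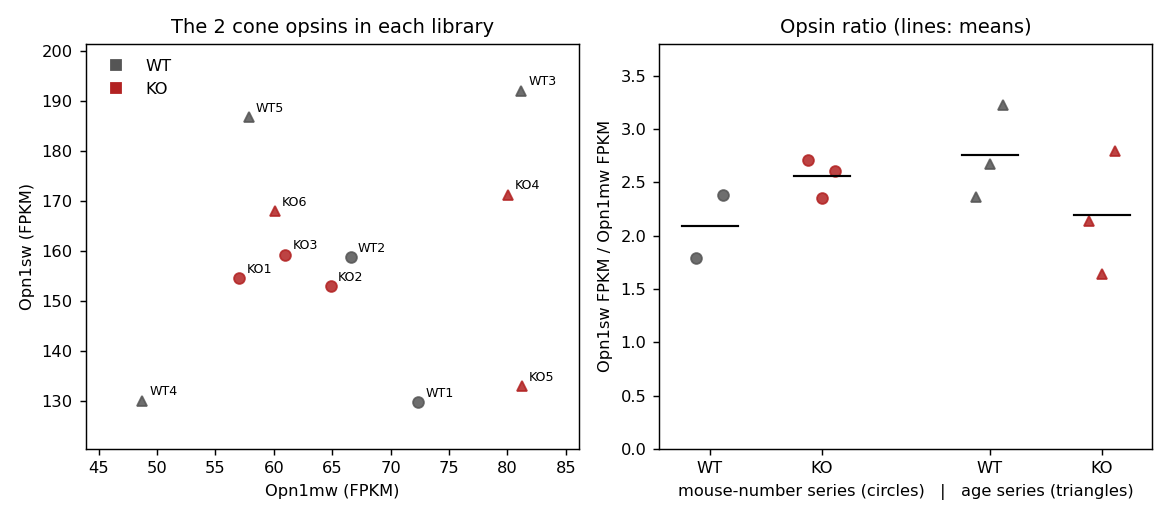
Left, FPKM of Opn1sw against Opn1mw in each library, on axes that do not start at 0. Right, the ratio of the 2 FPKM values by genotype and series, with lines at the means. Grey marks WT and red KO, circles the mouse-number series and triangles the age series. KO circles lie above the WT circles except for 1 near-tie at 2.36 and 2.39, while among the triangles the lowest point is KO replicate 5 at 1.64.

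Across the 11 libraries the log2 CPM of the 2 opsins had a Pearson r of -0.35 (permutation p = 0.281) and a Spearman rho of -0.26 (permutation p = 0.434). Without WT replicate 1 and KO replicate 5, the libraries farthest from the median of Opn1sw, r was 0.22, so the sign rests on those 2 libraries. This was the only relation between members that was tested. Over all 45 pairs of the 10 genes, r was above 0 in 26 and had a median of 0.18, from -0.57 for Opn1sw and Gnb3 to 0.86 for Gngt2 and Pde6h, given as a description because the libraries share their tissue makeup.

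The transducin of cones is built from Gnat2, Gnb3 and Gngt2. Gnat2, the alpha subunit that carries the signal to the phosphodiesterase (chr3:108092789-108101432, plus strand), had 120, 123, 141, 119 and 128 CPM in WT replicates 1 to 5. It ran from 113 through a median of 130 to 138 CPM in KO libraries. It varied the least among the 10 genes within WT, with a coefficient of variation of 7.28%, and its log2 fold change was 0.01 (SE 0.10, interval -0.18 to 0.21). Gngt2, the cone gamma subunit (chr11:95837216-95845734, plus strand), had 38.5, 30.8, 32.8, 25.1 and 30.0 CPM in WT, with WT replicate 1 highest and WT replicate 4 lowest of all 11 libraries. It ran from 28.9 through 30.5 to 35.5 CPM in KO, inside the WT range, with a log2 fold change of -0.01 (SE 0.12, interval -0.25 to 0.23).

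Gnb3, the beta subunit, which cones share with ON bipolar cells (chr6:124834240-124840275, minus strand), was the member that varied most. It had 654 CPM in WT replicate 1 and 255, 292, 245 and 296 CPM in WT replicates 2 to 5. KO replicates 1 to 6 had 227, 228, 284, 323, 461 and 337 CPM. WT replicate 1 thus stood far above its group, and KO replicate 5 was the highest of its own. The coefficient of variation was 49.5% in WT and 28.1% in KO. The log2 fold change was -0.17 (SE 0.29, interval -0.74 to 0.41) and became 0.19 without WT replicate 1. The summed ON bipolar markers were lowest in WT replicate 1, at 1034 CPM against 1088 to 1338 CPM in the other 10 libraries, and the summed rod markers were lowest there too, at 27475 CPM against 31874 to 43051 CPM.

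**Figure D3:**
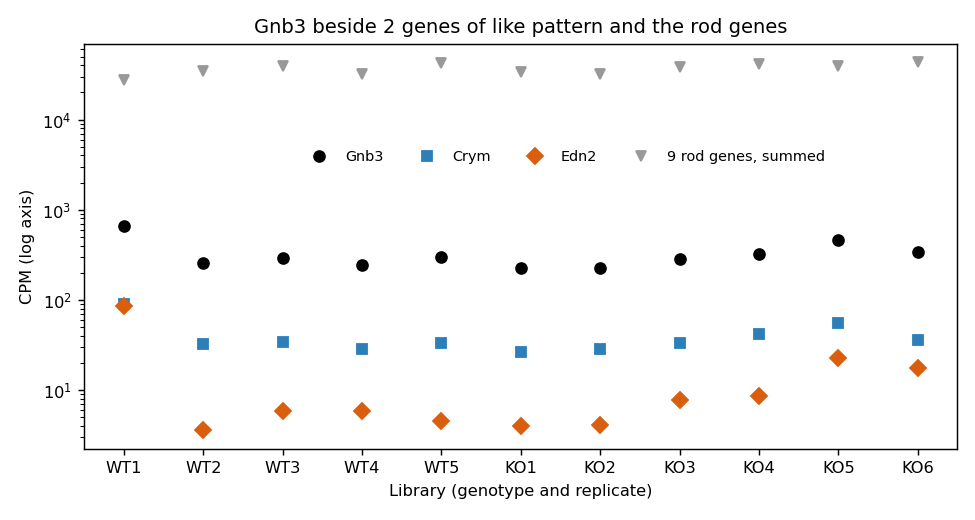
CPM on a log axis in each of the 11 libraries for Gnb3 (black circles), for Crym and Edn2, 2 of the 5 genes whose pattern was most like that of Gnb3 (blue squares and orange diamonds), and for the sum of 9 rod genes (grey triangles). Gnb3, Crym and Edn2 are highest in WT replicate 1 and next highest in KO replicate 5, while the rod sum is lowest in WT replicate 1.

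Gnb3 had the interaction of genotype and series farthest from 0 among the members. Its log2 fold change was -0.88 (SE 0.42, unadjusted p = 0.0344, adjusted p = 0.999) in the mouse-number series and 0.43 (SE 0.22, unadjusted p = 0.0456, adjusted p = 0.999) in the age series. The mouse-number series holds 2 WT libraries, with Gnb3 at 654 CPM in replicate 1 and 255 CPM in replicate 2. Its KO libraries had 227, 228 and 284 CPM, so the -0.88 rested on WT replicate 1, which also enters the interaction below. No cone gene was called in either series, where 7 genes (0.0444%) and 38 genes (0.241%) of 15767 were called. The interaction of genotype and series was -1.31 for Gnb3 (SE 0.48, unadjusted p = 0.00561, adjusted p = 1.00). It was 0.48 for Cngb3 (SE 0.20, unadjusted p = 0.0150, adjusted p = 1.00), and the other 8 members had an unadjusted p of 0.125 or more. None of the 10 was called, against 3 of all genes tested (0.0190%), Igflr1, Gm10163 and Gm8464, which were named after the values were seen.

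The cone phosphodiesterase is encoded by Pde6c, its catalytic subunit, and Pde6h, its inhibitory subunit. Pde6c (chr19:38132781-38183958, plus strand) had 86.8, 76.7, 82.4, 64.5 and 79.5 CPM in WT replicates 1 to 5 and 71.7 through a median of 76.3 to 91.5 CPM in KO. KO replicate 4 was the highest of all 11 libraries and WT replicate 4 the lowest. The log2 fold change was -0.01 (SE 0.11, interval -0.22 to 0.21). Pde6h (chr6:136923832-136968865, plus strand), the member with the seed match shown above, had 90.0, 71.3, 87.6, 66.2 and 74.3 CPM in WT. It ran from 67.4 through 81.0 to 90.5 CPM in KO, and its log2 fold change was 0.02 (SE 0.12, interval -0.21 to 0.26). Relative to WT, the interval of Pde6h reached from a change of -13.8% to one of 20.0%.

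The cone channel opened by cGMP consists of Cnga3 and Cngb3 subunits, and both were the weakest members. Cnga3 (chr1:37214434-37263384, plus strand) had 8.66, 8.44, 9.89, 10.2 and 11.2 CPM in WT and ran from 8.14 through 9.19 to 12.4 CPM in KO. In both genotypes the mouse-number libraries were below the age libraries, at 8.14 to 8.93 CPM against 9.45 to 12.4 CPM. Its log2 fold change was 0.03 (SE 0.17, interval -0.30 to 0.36). Cngb3 (chr4:19280850-19510623, plus strand) had 13.3, 12.7, 16.7, 16.3 and 15.1 CPM in WT and 13.1 through 14.5 to 16.8 CPM in KO, with a log2 fold change of 0.01 (SE 0.13, interval -0.24 to 0.27). Cngb3 did not share the order of Cnga3, since KO replicates 2 and 3 were among its highest libraries.

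Arr3, the cone arrestin that ends the activity of the opsin (chrX:100605497-100618493, plus strand), had 186, 217, 191, 191 and 166 CPM in WT replicates 1 to 5. It ran from 183 through a median of 203 to 211 CPM in KO. The highest and the lowest library of all 11 were both WT, replicates 2 and 5. Means were 190 ± 17.9 CPM (SD, n = 5) and 199 ± 10.4 CPM (SD, n = 6), and the log2 fold change of 0.07 (SE 0.11, interval -0.14 to 0.28) was the highest of the 10. Arr3 is also X-linked, and it had 186, 191 and 166 CPM in the 3 WT libraries with Xist and 217 and 191 CPM in the 2 without it.

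Exons of 3 members share bases with a gene on the opposite strand, Opn1sw with Calu over up to 392 bases, Gngt2 with Abi3 over up to 115 and Pde6h with Arhgdib over up to 76. No use of strand in the counting is stated, so reads from these stretches may belong to either gene.

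Per length, the 10 genes spread over a wide range. The median FPKM over the 11 libraries was 191 for Gnb3, 160 for Arr3, 159 for Opn1sw, 69.5 for Gnat2, 64.9 for Opn1mw, 57.6 for Gngt2, 26.7 for Pde6c, 17.4 for Pde6h, 3.18 for Cngb3 and 2.88 for Cnga3. Neighbours in this order overlapped between libraries except at 4 steps. These were the steps from Opn1sw to Gnat2, from Gngt2 to Pde6c, from Pde6c to Pde6h and from Pde6h to Cngb3. Within libraries, Gnb3 was above Arr3 in 8 of 11, Arr3 above Opn1sw in 5, Gnat2 above Opn1mw in 7, Opn1mw above Gngt2 in 10 and Cngb3 above Cnga3 in 8. The level of Pde6h per length depends on its long annotated 3′ UTR.

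Set against their rod counterparts in FPKM, cone genes stood at group means from 1.26% for Pde6h to 14.5% for Gngt2, and the KO libraries overlapped the WT libraries for each of 8 pairs, for which no test was made. The 2 cone opsins together were 4.16 ± 0.51% of rhodopsin in WT (3.46 to 4.90%) and 3.60 ± 0.43% in KO (3.15 to 4.26%). Gnat2 was 1.86 ± 0.25% of Gnat1 in WT and 1.75 ± 0.06% in KO, and Gngt2 was 14.5 ± 2.40% of Gngt1 in WT and 12.4 ± 1.65% in KO. For the phosphodiesterase, Pde6c was 2.78 ± 0.65% of Pde6a and Pde6b in WT and 2.54 ± 0.23% in KO, while Pde6h was 1.34 ± 0.24% and 1.26 ± 0.05% of Pde6g. The value for Pde6h depends on its long annotated 3′ UTR, since FPKM divides by length. In CPM the means of Pde6h were 77.9 in WT and 79.2 in KO, beside 1053 and 1138 for Pde6g. For the channel, Cnga3 was 1.61 ± 0.24% and 1.53 ± 0.20% of Cnga1, and Cngb3 was 4.28 ± 0.68% and 4.21 ± 0.69% of Cngb1. Arr3, at 8.01 ± 0.97% of the rod arrestin Sag in WT and 8.52 ± 1.23% in KO, was the pair of the 8 with a higher KO mean.

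**Figure D4:**
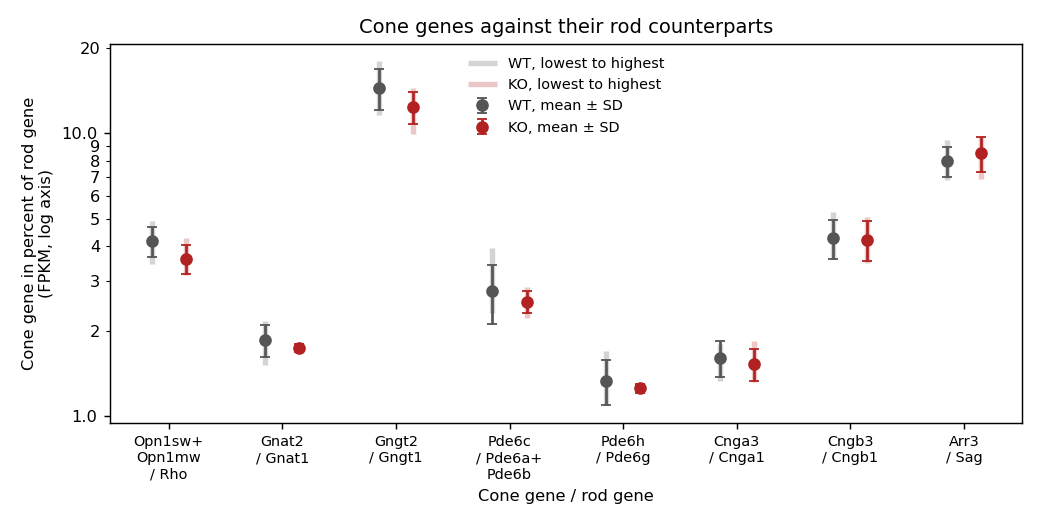
FPKM of each cone gene in percent of its rod counterpart, on a log axis, in WT (grey, 5 libraries) and KO (red, 6 libraries), with points and error bars for the mean ± SD and pale bars from the lowest to the highest library. The KO mean is below the WT mean in 7 of the 8 pairs, within the spread of the libraries. The FPKM of Pde6h depends on its long annotated 3′ UTR.

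Rod genes were therefore also used as the scale of the test. The 9 rod markers had a median log2 fold change of 0.11, with 8 above 0 and 1 below and none called, from -0.01 for Sag to 0.23 for Gngt1, the rod transducin gamma subunit. With library sizes replaced by the sum of these 9 genes, all 10 cone genes had a log2 fold change below 0, from -0.39 for Gnb3 to -0.06 for Arr3, with a median of -0.13. This scaling moved the median of all genes tested to -0.12, so relative to that shift the cone genes stood at the median of the table. None of the 10 was called (smallest unadjusted p 0.249, smallest adjusted p 0.970), against 1 of 15767 genes (0.00634%), again Xist.

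**Figure D5:**
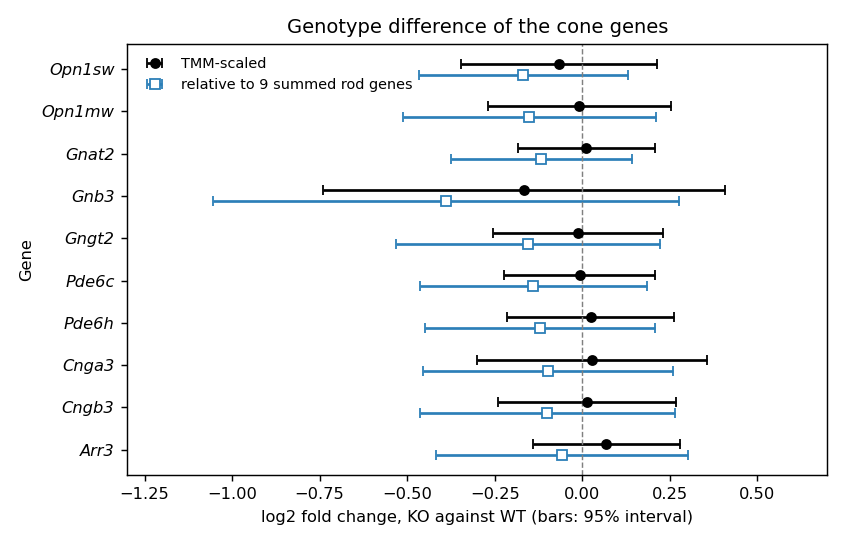
Log2 fold change of each cone gene, KO against WT, with 95% intervals, in the TMM-scaled fit (black circles) and relative to the 9 summed rod genes (open blue squares). Every interval includes 0, the TMM-scaled values run from -0.17 for Gnb3 to 0.07 for Arr3, and all rod-scaled values lie below 0 beside a median of -0.12 for all genes.

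Among 19 further genes of phototransduction and its recovery none was called, against 1 of all 15767 genes tested (0.00634%). Of their log2 fold changes 16 were above 0 and 3 below, with a median of 0.08. The highest was 0.21 (SE 0.22) for Kcnv2, a potassium channel subunit of photoreceptors, and the lowest -0.24 (SE 0.17) for Slc24a4, a cation exchanger. Among 26 genes that pattern or specify cones and their opsins none was called either, with 14 above 0, 12 below and a median of 0.01. The highest was 0.28 (SE 0.28) for Rorb, a nuclear receptor of photoreceptor differentiation. Thrb, the thyroid hormone receptor gene needed for Opn1mw, had a log2 fold change of 0.04 (SE 0.15).

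The lowest of the 26 was Dio3, the deiodinase that inactivates thyroid hormone. It had 5.43, 5.37, 6.00, 4.21 and 4.97 CPM in WT replicates 1 to 5 and 3.16, 4.09, 3.41, 2.33, 2.28 and 3.38 CPM in KO replicates 1 to 6. The groups did not overlap, with 4.21 CPM the lowest WT and 4.09 CPM the highest KO value, as in 0.184% of all genes tested. The log2 fold change was -0.74 (SE 0.20, unadjusted p = 0.000218), but the adjusted p was 0.858 and Dio3 was not called. It was the only gene of the 26 with an unadjusted p under 0.05, which 330 of all 15767 genes tested had.

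The other cell types of the eye showed no call, in a test that called 1 of all 15767 genes (0.00634%). The 7 ON bipolar markers had a median log2 fold change of 0.09 (from -0.04 for Grm6 to 0.14 for Pcp2). The 5 Mueller glia markers had a median of 0.00 (from -0.02 for Glul to 0.13 for Rlbp1), and the 5 tested markers of the pigment epithelium a median of -0.05 (from -0.15 for Ttr to 0.11 for Rpe65), with Best1 not tested. Genes of tissue outside the retina had medians farther from 0, at -2.19 for 7 tested lens genes (from -3.99 for Bfsp1 to -1.71 for Cryba1), -1.97 for 6 tested adipocyte genes (from -2.12 for Cfd to -0.87 for Retn) and -0.54 for 7 muscle genes (from -0.64 for Atp2a1 to -0.43 for Mylpf). The sign of the lens median rested on WT replicate 4, without which it was 7.22, with all 7 genes above 0. Over all single libraries left out, chosen after seeing the data, the adipocyte median ran from -3.78 (without KO replicate 1) to -1.23 (without WT replicate 1) and the muscle median from -1.04 to -0.29 (without the same libraries). Their summed levels overlapped between the genotypes, at 18.9 to 86032 CPM in WT and 5.58 to 24118 CPM in KO for lens, 12.96 to 426 and 11.9 to 206 CPM for adipocytes, and 1164 to 8659 and 900 to 9358 CPM for muscle. Mip and Lim2 of the lens list and Lep of the adipocyte list were at 0 in some libraries. Without the 3 libraries richest in lens RNA, and without the 3 richest in muscle RNA, again 0 of the 10 cone genes were called. Each of these settings called 1 of all 15767 genes tested.

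The genes most like the cone genes were looked for over all 11 libraries, by Pearson's r with the mean standardized log2 CPM of the 10 members. They were Fads2, a fatty acid desaturase, at 0.93, then Arnt2 and Tspyl2 at 0.88 and Fam19a3 and Pcdhb20 at 0.87. Fads2 had 54.5, 50.1, 58.8, 50.2 and 54.4 CPM in WT replicates 1 to 5 and 47.1 to 61.4 CPM in KO libraries. For the log2 ratio of the opsins the highest r were those of Sh2d1a (0.91), Adam9 (0.90), Zkscan7 and Rasgrp3 (0.89) and Slc4a4 (0.88), and the lowest those of Zfp641 and Brf1 (-0.91), Jchain (-0.90), and Tmem26 and Ccdc28b (-0.89). These are the extremes of 15767 correlations over 11 libraries, and they carry no p.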

How the data were processed

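Eyes of 5 WT and 6 miR-211-/- mice were sequenced as 100-base read pairs. The authors aligned them and assigned them to Gencode mouse release M4 with RSEM 1.2.19, and deposited for each gene an expected count, the estimated number of read pairs without scaling, which can be fractional where pairs fit several genes. The FPKM values were also deposited, which RSEM scales by effective length and mapped fragments, so that a library rich in lens RNA has lower FPKM for all other genes. Expected counts were rounded to whole numbers, and FPKM served for levels and ratios only.

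Genes that reached 1 CPM in 5 or more libraries were fitted with edgeR 4.0.16 in R 4.3.3 (TMM, likelihood-ratio test, genotype as only term, all 11 libraries). The filter, edgeR's generalized linear model and the threshold of 0.1 are those the study states. The study reported many more genes at this threshold than the 1 called here. Most of its genes were lower in KO, among them Adipoq, Fabp4 and Cfd. That result was not reproduced here, and the reason was not tested. The common biological coefficient of variation was 26.1%. Intervals are normal 95% intervals from the fitted SE. A prior count of 2 was added for log2 CPM. Opsin ratios were compared by two-sided exact permutation tests (scipy 1.17.1). Symbols matched 95.4% of gene IDs. Positions and 3′ UTRs came from Gencode M21 on GRCm38, the build of release M4. The members and lists were chosen with earlier results of these data known. Named were all members, the highest and lowest gene of each other list, any list gene called, the 5 genes most like the members' mean, the 5 highest and lowest against the opsin ratio, Mir211, Trpm1 and Xist. Alternatives were other scalings, filters and tests (DESeq2 1.42.0), library series, replicate block and leaving out libraries.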

Additional observations from a re-analysis of the deposited data

Results flagged for a closer look

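In the 22 genotype groups of single-gene or ratio values examined, 3 held a library far from its neighbours by Dixon's ratio, the gap to the nearest library over the whole range, and chance flags about 1 in 20 groups. Gnb3 in WT replicate 1 had a ratio of 0.808, at 9.35 on the log2 CPM scale against 7.94 to 8.21 in the other WT libraries. Opn1sw in KO replicate 5 had a ratio of 0.644, at 7.73 against 7.99 to 8.14. Pde6c in KO replicate 4 had a ratio of 0.649, at 6.52 against 6.17 to 6.29. The genotype difference of the log2 ratio of Opn1sw to Opn1mw differed by 0.73 between the mouse-number and the age series (two-sided exact permutation p = 0.045, chosen after the values were seen). WT replicate 1 and KO replicate 5, the lowest of their genotypes at 1.48 and 1.33, widen this contrast, which was not computed without them. The part of other tissues, of the series or of sex in these values was not tested.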

How the results depend on the processing

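The count of called cone genes was 0 in all 27 other settings (smallest adjusted p 0.909, smallest unadjusted p 0.0344). Of 260 fold changes of single members under them, 193 kept their sign and 67 did not, most of them values near 0, and the cause was not tested. The sign changed with upper-quartile scaling (Opn1mw 0.0022, Pde6c 0.0035), library size alone (Opn1mw 0.035, Gngt2 0.028, Pde6c 0.033), crystallin genes removed (Opn1mw 0.0028, Pde6c 0.0036), scaling on rod genes (Gnat2 -0.12, Pde6h -0.12, Cnga3 -0.10, Cngb3 -0.10, Arr3 -0.059), the mouse-number series alone (Opn1sw 0.14, Gnat2 -0.022, Pde6h -0.081, Cnga3 -0.016, log2 opsin ratio 0.36) and the age series alone (Opn1mw 0.16, Gnb3 0.43, Gngt2 0.092, Pde6c 0.077, Cngb3 -0.19). Added after seeing the data, leaving out the 3 lens-rich libraries gave Opn1mw 0.020, Gnat2 -0.027 and Pde6h -0.078, and leaving out the 3 muscle-rich ones gave Opn1mw 0.094, Gnb3 0.24, Gngt2 0.11, Pde6c 0.068, Cnga3 -0.026 and Cngb3 -0.080. The muscle-rich libraries are all of the mouse-number series and include both of its WT libraries. With the replicate number as a block, without KO replicate 6, values were Opn1mw 0.025, Gnat2 -0.0078, Gngt2 0.017 and Pde6c 0.0030, the opsin ratio differed by -0.11 (exact permutation p = 0.75, smallest possible 0.0625), and 10 of all genes were called. The deviations of same-numbered libraries 1 to 5 from their group means had r of 0.54, 0.63, -0.33, -0.26 and 0.53 (mean r of each WT library with the other KO libraries -0.14, -0.16, 0.10, 0.05 and -0.07), a mixed result that does not establish pairing by number. Leaving out 1 library at a time, Opn1sw ran from -0.14 to -0.011, Opn1mw -0.065 to 0.050, Gnat2 -0.019 to 0.055, Gnb3 -0.31 to 0.19, Gngt2 -0.091 to 0.072, Pde6c -0.077 to 0.034, Pde6h -0.039 to 0.081, Cnga3 -0.047 to 0.085, Cngb3 -0.036 to 0.059, Arr3 0.025 to 0.12 and the opsin ratio -0.17 to 0.061. Over all genes tested, 1 was called in the main analysis, 1 to 11 on leaving out 1 library (11 without KO replicate 1, 2 without WT replicate 2), 2 with DESeq2, 2 with every gene of at least 1 count, 10 with the series as covariate, 38 in the age series, 7 in the mouse-number series and 0 by edgeR's quasi-likelihood test, where 446 genes had an unadjusted p under 0.05. Rod scaling is the setting that put all 10 members below 0. Depth was lowest for Cnga3, with 162 read pairs in 1 library.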

Other observations

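Gnb3 varied more between libraries than any other cone gene, and the genes most like it over the 11 libraries were looked for after its values had been seen. They were Crym (r = 0.98), Prtg, Slc25a37 and Hkdc1 (r = 0.96 each) and Edn2 (r = 0.95). Crym, which encodes a thyroid hormone binding protein, reached 90.2 CPM in WT replicate 1 and was next highest in KO replicate 5, at 55.4 CPM, with 26.4 to 41.3 CPM in the other 9 libraries. Edn2, which encodes endothelin 2, a peptide that photoreceptors are known to make after injury, reached 85.9 CPM in WT replicate 1, followed by KO replicate 5 at 22.4 CPM and KO replicate 6 at 17.7 CPM, with 3.57 to 8.50 CPM in the other 8 libraries. Like Gnb3, each of these genes was highest in WT replicate 1 and next highest in KO replicate 5, an order that their choice by correlation with Gnb3 favours. Their r without these libraries was not computed, and no label tells these libraries apart from the rest of their groups.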
